A study of Mus musculus with 4 samples.

Results

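A set of 10 leukocyte adhesion and sialomucin genes of endothelium was followed by name, and 9 of them were among the 12693 gene symbols listed for brain endothelial cells (ECs) with and without *Foxq1*. They are *Icam1*, *Icam2*, *Vcam1*, *Pecam1*, *Cd99l2*, *Cd34*, *Podxl*, *Emcn* and *Cd47*. The remaining one, *Sele*, was not listed. The genes are defined by name alone, and no measured value enters that rule. The set was, however, chosen with earlier results of these data known. Both *Foxq1* cKO samples had less *Emcn*, *Cd34*, *Pecam1* and *Vcam1* transcript than either wild-type sample, with means from 76.2% of wild-type for *Emcn* to 86.9% for *Cd34*. This arrangement was seen in 18% of all genes tested. It was also seen in 5 of 8 endothelial markers and in the summed microglia and neural markers. Taken singly, 3 of 9 microglia and macrophage markers and 2 of 8 neural markers showed it. The part of these cells in the result was not tested. For the other 5 genes the genotypes overlapped. None of the 9 differences passed limma's test across all genes, with or without adjustment, and these differences are given as measured values.

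The samples came from C57BL/6 mouse embryos at embryonic day 18 (E18). The labels give the tissue as brain, and in the study's methods the cells were sorted from cerebral cortex by the endothelial surface antigen CD31. There were 2 wild-type samples, labelled WT, and 2 samples of the genotype FOXQ1fl/fl;Tie2-Cre, called *Foxq1* cKO here. The controls were littermates without the Cre transgene by the study's methods, and whether these embryos carried floxed alleles is not given in the sources used here. Tie2-Cre acts in endothelium, and it is also known to be active in blood-forming lineages, so that deletion is not restricted to ECs by this driver. Nothing in the labels says whether a sample was 1 embryo or a pool, and p-values measure only the spread between these samples. *Foxq1* itself measured 353 and 297 normalized counts in wild-type against 5.44 and 32.6 in *Foxq1* cKO samples (log2 fold change -4.47, SE 1.04, unadjusted p = 0.00507, adjusted p = 0.857, limma). DESeq2 on the recovered reads gave *Foxq1* an adjusted p of 0.00854 and edgeR 0.937. The exons of *Foxq1* share 3200 bases with *A530084C06Rik* on the other strand, and reads of that stretch cannot be assigned with certainty.

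Leukocytes leave the blood by tethering and rolling on selectins, by firm adhesion of their integrins to immunoglobulin-family receptors such as ICAM-1, ICAM-2 and VCAM-1, and by passing the endothelial layer with the help of PECAM-1 and CD99-family proteins. Sialomucins such as CD34, podocalyxin and endomucin carry dense sialylated sugars on the luminal face, where they can present selectin ligands or keep cells apart, depending on their glycosylation. At the blood-brain barrier the inducible receptors are known to be kept low in the absence of inflammation. CD47 signals to SIRPα on phagocytes and restrains engulfment.

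The 4 libraries held between 15827166 and 21466436 reads on listed genes, and the 9 genes were covered by between 668 and 46645 reads per sample. The values are normalized counts, in which the reads on a gene are divided by 1 size factor per sample. All 8 endothelial markers examined (*Cdh5*, *Kdr*, *Tek*, *Tie1*, *Cldn5*, *Flt1*, *Erg* and *Eng*) were present in every sample. Their summed normalized counts lay between 258433 and 287696 in wild-type and between 231823 and 254057 in *Foxq1* cKO samples, so the sum was lower in both *Foxq1* cKO samples. Pericyte transcripts were abundant too. The 6 listed of 8 pericyte and smooth muscle markers summed to between 132017 and 135474 in wild-type and between 127924 and 136961 in *Foxq1* cKO samples, with *Acta2* and *Tagln* not listed. The 9 microglia and macrophage markers summed to between 10315 and 12542 against 7474 and 8263, and the 8 neural markers to between 17648 and 18648 against 15398 and 16445. The summed microglia and neural markers were thus also lower in both *Foxq1* cKO samples. Of the single neural markers 2 of 8 were lower in both and 0 higher, beside 18% of all genes in each direction. Their log2 fold changes lay between -0.63 and 0.22. Of the blood markers 6 of 7 were listed (13716 to 17018 in wild-type, 13785 to 17735 in *Foxq1* cKO samples), *Gp1ba* not among them, and of the fibroblast markers 2 of 4 (442 to 1858 against 355 to 857), without *Dcn* and *Lum*. Several of the 9 genes are also transcribed in such cells, and the part of these cells in the results was not tested. In bulk samples, fewer cells of a type and less RNA per cell cannot be told apart.

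To compare the genes with each other, normalized counts were divided by the length of all annotated exons of a gene. *Cd34* was the highest, with 5392 and 5953 normalized counts per kb in the wild-type samples, above 99.3% of the 12457 genes that had a length. *Pecam1* (2296 ± 108 per kb, SD, n = 2) and *Podxl* (2022 ± 109 per kb, SD, n = 2) followed. *Icam2* (1211 ± 2.17 per kb, SD, n = 2), *Emcn* (1079 ± 103 per kb, SD, n = 2) and *Icam1* (759 ± 215 per kb, SD, n = 2) took the middle. Among wild-type samples only *Cd47* and *Cd99l2*, at means of 370.02 and 272 per kb, were neighbours whose samples overlapped. *Vcam1* was the lowest with 113 and 100.3 per kb, close to the median of all genes, 107.5 per kb. The order of the 9 means was the same in *Foxq1* cKO samples, where *Pecam1* and *Podxl* were the neighbours that overlapped, at 1971 ± 257 and 1969 ± 212 per kb (SD, n = 2).

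**Figure D1:**
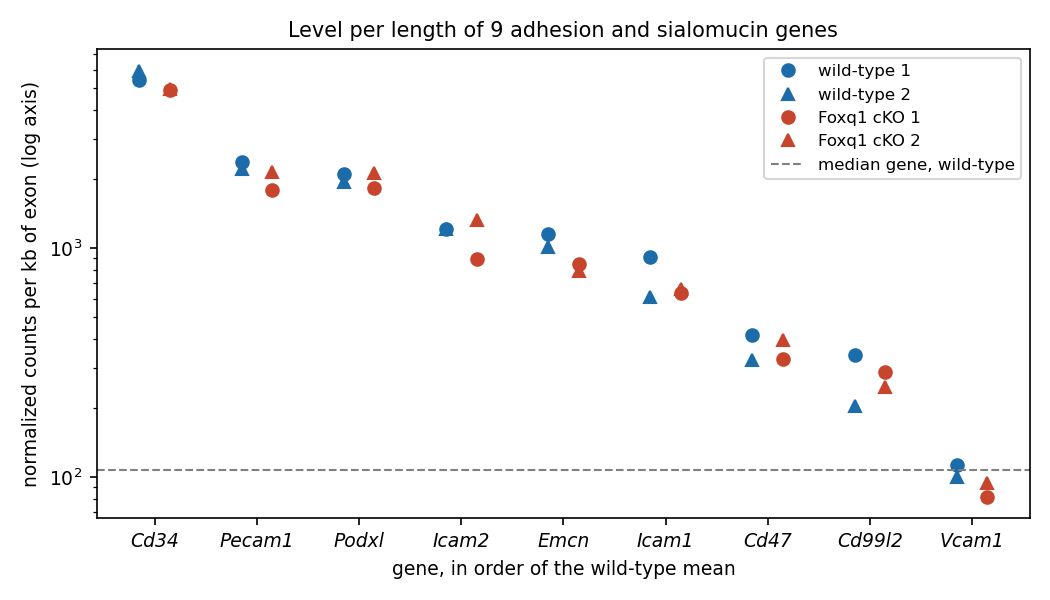
Normalized counts per kb of annotated exon (log axis) of the 9 genes, in order of the wild-type mean, with 1 point per sample and the median wild-type level of all genes as a dashed line. *Cd34* stands at or above 4894 per kb in every sample, and *Vcam1* lies between 82 and 113 per kb, next to the median gene.

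The question for each gene was whether its level differed between *Foxq1* cKO and wild-type ECs. Over the 9 genes the log2 fold change (*Foxq1* cKO against wild-type, on log2 of the normalized count plus 1) lay between -0.39 and 0.02, with a median of -0.20. The median over all 12472 genes tested was 0.01. Of the 9 fold changes 8 were below 0, and 6 were below 0 under quantile normalization, where *Podxl* and *Cd47* turned, and 6 when the samples were scaled to the endothelial markers, where the same genes turned. That scaling, chosen after seeing the data, moved the median of all genes to 0.15 and that of the 9 genes to -0.06. It shifts every gene of a sample by the same amount, so it cannot change the difference between the 9 genes and all genes. No gene of the 9 had an unadjusted p under 0.05 in limma, against 5.22% of all genes tested. No gene of the 9 had an adjusted p under 0.05 either, and the share over all genes was 0%, with 651 genes under 0.05 unadjusted. DESeq2 gave 59 genes under 0.05 after adjustment over all genes and edgeR none, and none of the 9 genes was among them. In limma the smallest adjusted p among the 9 genes was 0.857, which was also the smallest of all genes, and in DESeq2 the smallest among the 9 genes was 0.806. In 4 of the 9 genes both *Foxq1* cKO samples were below both wild-type samples, an arrangement seen in 18% of all genes tested. Without 1 sample the median of the 9 genes ranged from -0.27 (without wild-type 2) to -0.09 (without *Foxq1* cKO 1), and the number below 0 from 9 to 5, the lowest without wild-type 1. In no gene were both *Foxq1* cKO samples above both wild-type samples, which 18% of all genes showed. These counts are a description, since the genes were chosen with earlier results known and share the same 4 samples.

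By limma's main fit the precision for these genes was better than for most. Their standard errors (SE) lay between 0.0998 and 0.328 on the log2 scale, and all 9 were under the median standard error of all genes, 0.496. These values rest partly on the trend of the variance with level that this fit uses. Without the trend the SEs of the 9 genes lay between 0.275 (*Cd34*) and 0.387 (*Cd99l2*). The intervals that follow are those of the main fit. The 95% interval of *Cd34* reached from 73.5% to 103% of the wild-type level, and that of *Podxl* from 76.7% to 123%. For *Cd99l2*, the least precise, it reached from 58.2% to 176%. The lowest bound of the 9 genes was 49.5% of the wild-type level, for *Vcam1*.

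**Figure D2:**
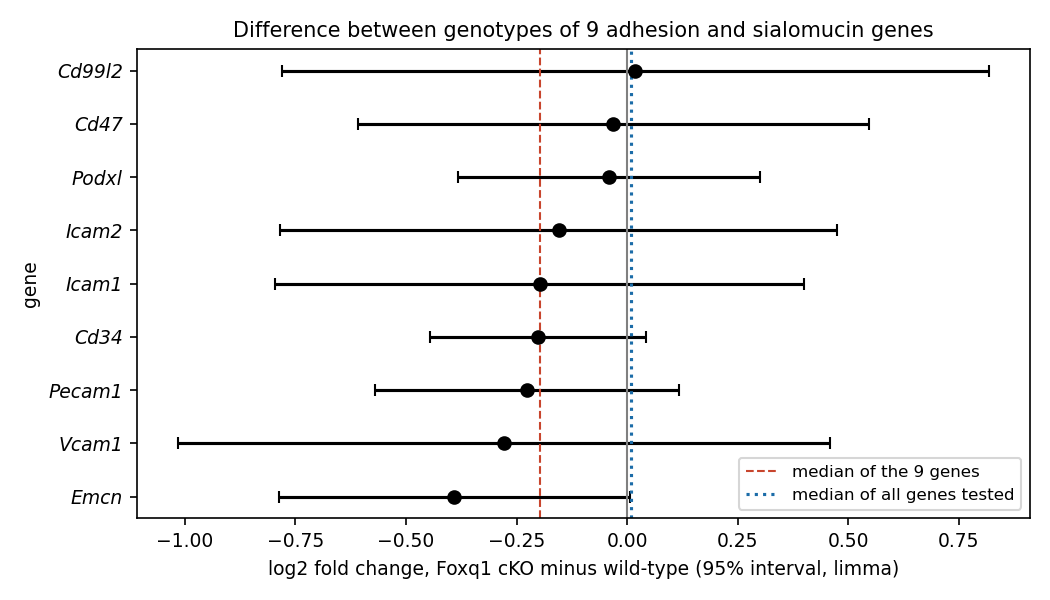
Log2 fold change of the 9 genes between *Foxq1* cKO and wild-type samples (points) with the 95% interval of limma (bars), beside the medians of the 9 genes and of all genes tested. Each interval includes 0, and that of *Emcn*, the lowest, ends at 0.0075.

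The sialomucins were examined first. *Emcn* (GRCm38 chr3:137341067-137432185, plus strand) encodes endomucin, a sialomucin of capillary and venous endothelium that hinders leukocyte adhesion and takes part in VEGF receptor uptake. Its normalized counts were 6232 and 5441 in wild-type against 4620 and 4273 in *Foxq1* cKO ECs. The genotypes did not overlap, and the samples of each genotype were within 1.15-fold of each other. The *Foxq1* cKO mean was 76.2% of wild-type, the lowest share of the 9 genes. This gave a log2 fold change of -0.39 with an SE of 0.163 (unadjusted p = 0.0533 and adjusted p = 0.857, limma). On the recovered reads the unadjusted p was 0.0590 in DESeq2 and 0.0526 in edgeR, above 0.05 in both. In limma the unadjusted p was 0.121 with quantile normalization and 0.243 without the trend in the variance. With the samples scaled to the endothelial markers its log2 fold change was -0.25 (unadjusted p = 0.204, limma).

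*Cd34* (chr1:194938819-194961279, plus strand) encodes a sialomucin of endothelium and blood progenitors that carries selectin ligands in lymph node vessels. Its wild-type samples had 39304 and 43394 normalized counts and its *Foxq1* cKO samples 35675 and 36160. The *Foxq1* cKO samples were within 1.01-fold of each other and both below wild-type, with a mean at 86.9% of wild-type and a log2 fold change of -0.20 with an SE of 0.0998 (unadjusted p = 0.0895, adjusted p = 0.857, limma). With the samples scaled to the endothelial markers it was -0.06 (unadjusted p = 0.623, limma), and without wild-type 2 it was -0.13. Without the trend in the variance the unadjusted p of *Cd34* was 0.507 in limma. *Cd34* shares 148 exonic bases with the listed antisense gene *Gm16897*. The paper describes its RNA sequencing as based on Smart-seq2, and whether counting used the strand is not given in the sources used here. Reads of the shared stretch therefore cannot be assigned with certainty.

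*Podxl* (chr6:31519488-31563981, minus strand) encodes podocalyxin, which clears the forming lumen of vessels and binds NHERF scaffold proteins and ezrin at the cell cortex. It had 11522 and 10672 normalized counts in wild-type against 9986 and 11631 in *Foxq1* cKO samples. The lowest and the highest value were both *Foxq1* cKO samples, and the *Foxq1* cKO mean was 97.4% of wild-type. Its log2 fold change was -0.04 (SE 0.140, adjusted p = 0.972, limma), and the sign turned under quantile normalization (0.08). The ratio of *Emcn* to *Podxl* within a sample, which no size factor changes, was 0.541 and 0.510 in wild-type against 0.463 and 0.367 in *Foxq1* cKO samples. This ratio was lower in both *Foxq1* cKO samples, and with 2 samples a group an exact two-sided permutation test cannot give a p below 0.333. The pair was picked after its values were seen.

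The study used GTTTC as the motif of FOXQ1. The upstream sequences of *Emcn* and *Cd34*, the sialomucins whose genotypes did not overlap, are shown for that reason. RefSeq's promoter table (GRCm38.p6) held 6 of the 10 genes, in 7 windows, and did not hold *Icam2*, *Vcam1*, *Pecam1* and *Podxl*. The 250 bases before the start were searched on both strands for GTTTC, for the forkhead motif GTAAACA, for TATAAA and for the kappaB consensus. The last was searched as GGGRNNYYCC, a strict form of the binding motif of NF-κB. In that string R is A or G, Y is C or T and N is any base. The window of *Emcn* is chr3:137340828-137341077 and that of *Cd34* chr1:194938571-194938820, both on the plus strand of GRCm38.p6. Capitals mark the matches, which are GTTTC read on the minus strand in *Emcn* and on the plus strand in *Cd34*.
Emcn: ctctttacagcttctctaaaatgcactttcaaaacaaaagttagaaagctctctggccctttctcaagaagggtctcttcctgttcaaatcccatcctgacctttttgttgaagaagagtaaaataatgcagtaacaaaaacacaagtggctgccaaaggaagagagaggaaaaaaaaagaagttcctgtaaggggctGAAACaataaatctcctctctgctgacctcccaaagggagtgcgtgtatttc
Cd34: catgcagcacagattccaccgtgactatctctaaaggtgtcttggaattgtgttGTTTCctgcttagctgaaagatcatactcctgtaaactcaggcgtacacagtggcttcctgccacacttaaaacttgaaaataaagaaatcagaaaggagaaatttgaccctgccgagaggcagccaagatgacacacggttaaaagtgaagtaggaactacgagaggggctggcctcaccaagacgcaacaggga
The match in *Emcn* lies 52 to 48 bases before the start and that in *Cd34* 196 to 192 bases before it. GTTTC on either strand occurred in 39.7% of the 32851 windows of the table, so that its presence is common. *Icam1* and *Cd99l2* held 1 match each and *Sele* and *Cd47* none. GTAAACA was in none of the windows of these genes and in 3.17% of all windows. A match is a description of letters and not a binding site.

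The receptors of leukocyte integrins came next. *Icam1* (chr9:21015985-21028817, plus strand) encodes ICAM-1, the inducible ligand of the β2 integrins LFA-1 and Mac-1. Its wild-type samples had 3975 and 2647 normalized counts and its *Foxq1* cKO samples 2765 and 2894. Wild-type 1 stood above the other 3 samples, which were close together, and the genotypes overlapped. The log2 fold change of -0.20 (SE 0.245, adjusted p = 0.908, limma) became 0.10 without wild-type 1, -0.49 without wild-type 2 and -0.06 when scaled to the endothelial markers. Its exons share 511 bases with the antisense gene *Gm47079*, which was not listed. *Vcam1* and *Cd99l2* share 61 and 34 exonic bases with antisense genes.

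*Icam2* (chr11:106377656-106388075, minus strand) encodes ICAM-2, a constitutive ligand of LFA-1 on resting endothelium. It had 2309 and 2303 normalized counts in wild-type against 1697 and 2528 in *Foxq1* cKO samples. The wild-type samples were nearly equal and lay between the *Foxq1* cKO samples, which were 1.49-fold apart. Its log2 fold change was -0.15 (SE 0.258, adjusted p = 0.936, limma), 0.13 without *Foxq1* cKO 1, -0.44 without *Foxq1* cKO 2 and -0.02 when scaled to the endothelial markers.

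*Vcam1* (chr3:116109949-116129688, minus strand) encodes VCAM-1, the ligand of the α4β1 integrin, which is also made by neural progenitors and mural cells. It had 1003 and 889 normalized counts in wild-type against 727 and 833 in *Foxq1* cKO samples. No overlap was seen between the genotypes, and the smallest gap, between 833 and 889, was narrower than the gap within either genotype. The *Foxq1* cKO mean was 82.5% of wild-type, with a log2 fold change of -0.28 (SE 0.302, adjusted p = 0.893, limma). Scaled to the endothelial markers the log2 fold change of *Vcam1* was -0.14, and without *Foxq1* cKO 1 it was -0.18. This was the gene with the fewest reads of the 9, from 668 to 1190 per sample.

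*Sele* (chr1:164048234-164057677, plus strand) encodes E-selectin, which is made by endothelium after inflammatory stimulation and tethers leukocytes. It was not listed, and neither was *Selp*, the gene of P-selectin. The genes that were listed had no fewer than 1 read per sample and 21 reads in total, so no level and no comparison can be given for the selectins. *Icam1* and *Sele* are both known as NF-κB-induced genes, 1 of them listed and the other not, and their upstream sequences are shown for comparison. The windows are chr9:21015690-21015939 for *Icam1* and chr1:164047984-164048233 for *Sele*, both on the plus strand of GRCm38.p6, with GTTTC in *Icam1* and TATAAA in *Sele* in capitals.
Icam1: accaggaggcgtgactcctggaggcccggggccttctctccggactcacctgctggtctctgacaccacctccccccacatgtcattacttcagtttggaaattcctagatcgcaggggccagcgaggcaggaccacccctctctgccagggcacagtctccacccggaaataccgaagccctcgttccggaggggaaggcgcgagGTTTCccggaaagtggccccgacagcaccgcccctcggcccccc
Sele: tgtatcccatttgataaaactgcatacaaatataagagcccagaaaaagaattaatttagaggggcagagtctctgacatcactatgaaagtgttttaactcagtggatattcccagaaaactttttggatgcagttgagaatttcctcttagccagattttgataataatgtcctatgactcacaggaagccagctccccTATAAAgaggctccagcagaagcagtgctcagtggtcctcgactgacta
TATAAA was found in *Sele* alone among the 6 genes, 49 to 44 bases before the start, and in 12.4% of all windows. The kappaB consensus was in none of the windows of these genes and in 7.25% of all windows. Strings that differ from this strict form were not searched, so the lack of a match does not show the lack of an NF-κB site. The *Icam1* window has 65.2% G and C and that of *Sele* 40.4%.

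Of the proteins of the passage through the endothelial layer, PECAM-1 is CD31, the antigen by which the cells were sorted. A level of *Pecam1* is therefore that of cells gated on its protein. *Pecam1* (chr11:106654217-106750628, minus strand) had 14775 and 13823 normalized counts in wild-type against 11143 and 13406 in *Foxq1* cKO samples. Both *Foxq1* cKO samples were lower, the second by little, and the mean was 85.8% of wild-type. The log2 fold change was -0.23 (SE 0.141, unadjusted p = 0.160, adjusted p = 0.857, limma). The ratio of *Pecam1* to *Cdh5*, the gene of VE-cadherin, was 3.23 and 3.24 in wild-type against 2.34 and 2.79 in *Foxq1* cKO samples. By the deposited scaling *Cdh5* itself was higher in both *Foxq1* cKO samples (log2 fold change 0.12, adjusted p = 0.914, limma), although 5 of the 8 endothelial markers were lower in both. The ratio was chosen after its values were seen. The log2 fold change of *Pecam1* was -0.09 without *Foxq1* cKO 1, and also -0.09 when scaled to the endothelial markers. Without *Foxq1* cKO 2 it was -0.36.

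The other 8 genes were also measured against *Pecam1* within each sample, a ratio chosen after the values were seen. It overlapped between the genotypes for 6 of the 8 genes, *Emcn*, *Cd34* and *Vcam1* among them, and was higher in both *Foxq1* cKO samples for 2 and lower for none. Over all genes tested the ratio to *Pecam1* was higher in both for 28.5% and lower in both for 9.15%. For *Podxl* it was 0.780 and 0.772 in wild-type against 0.896 and 0.868 in *Foxq1* cKO samples. For *Cd47* it was 0.177 and 0.146 against 0.184 and 0.185. These 2 ratios were higher by 0.18 and 0.19 on the log2 scale. With 28.5% of all genes arranged in the same way, 2 of 8 is not particular to these genes.

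*Cd99l2* (chrX:71420060-71492849, minus strand) encodes a CD99-like protein that helps leukocytes through the endothelial layer and its basement membrane. It had 1663 and 1002 normalized counts in wild-type against 1412 and 1212 in *Foxq1* cKO samples. The *Foxq1* cKO samples lay between the wild-type samples, which were 1.66-fold apart. The log2 fold change of 0.02 (SE 0.328, adjusted p = 0.996, limma) ranged from -0.35 to 0.38 with each sample left out in turn. *Cd47* (chr16:49800533-49915010, plus strand) encodes the integrin-associated protein that phagocytes read through SIRPα. It had 2620 and 2025 normalized counts in wild-type against 2050 and 2479 in *Foxq1* cKO samples. The *Foxq1* cKO samples again lay between the wild-type samples, with a log2 fold change of -0.03 (SE 0.236, adjusted p = 0.988, limma).

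**Figure D3:**
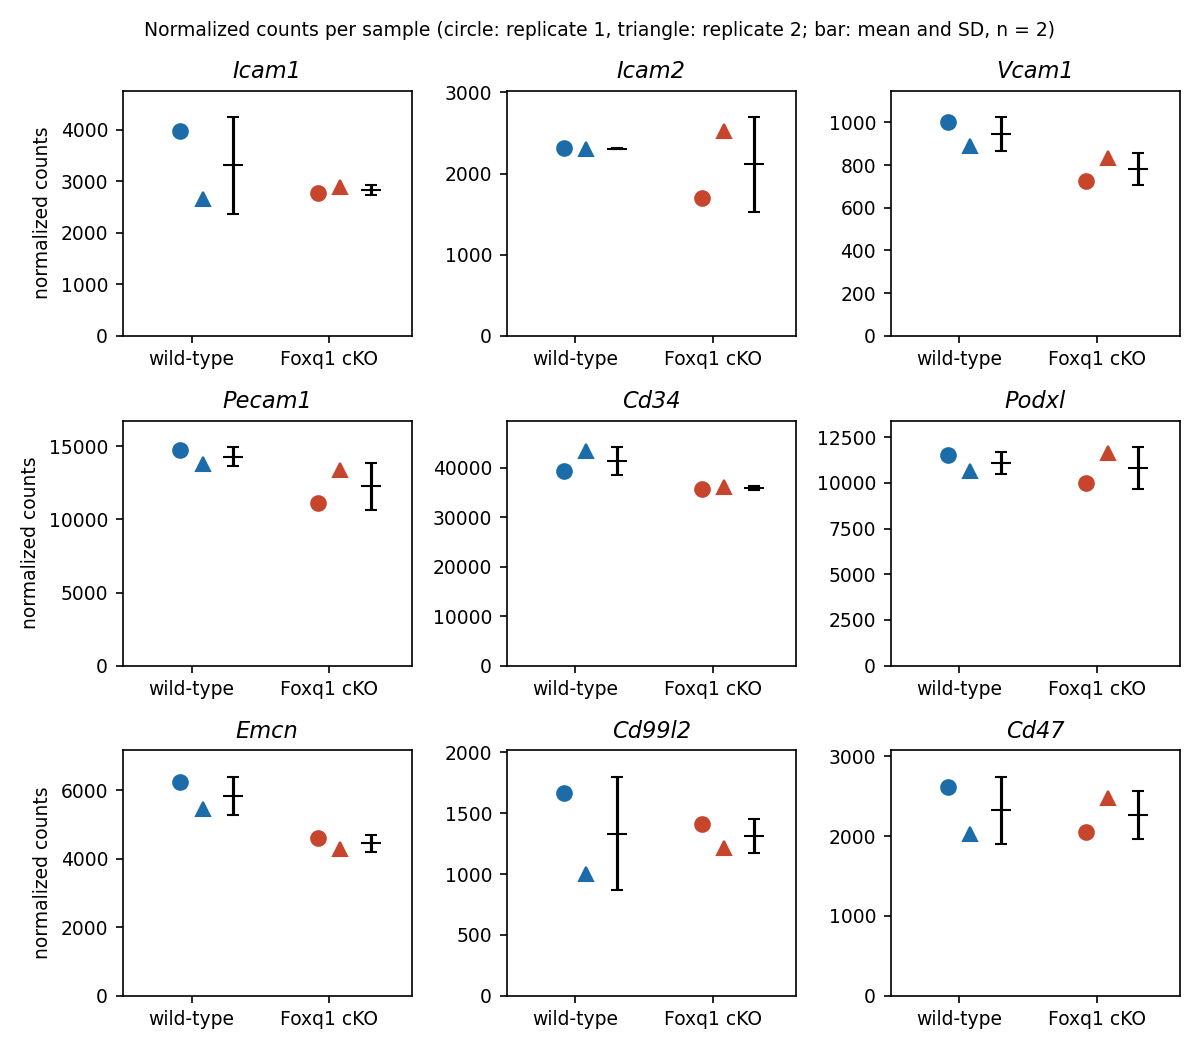
Normalized counts of the 9 genes in each sample (blue, wild-type, red, *Foxq1* cKO, circles replicate 1, triangles replicate 2) with the mean and SD of each genotype (n = 2) on axes that start at 0. *Emcn*, *Cd34*, *Pecam1* and *Vcam1* show no overlap of the genotypes, and in the other 5 genes one genotype lies inside the range of the other.

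Other genes of the same processes were then counted in 5 lists. Of 20 other adhesion molecules of endothelium 16 were listed and tested, with a median log2 fold change of -0.16. Both *Foxq1* cKO samples were lower in 5 and higher in 3 of these 16, beside 18% of all genes in each direction. An unadjusted p under 0.05 was seen in 1 of the 16, beside 5.22% of all genes. This was *Cd9*, a tetraspanin that gathers ICAM-1 and VCAM-1 into adhesion platforms, with 2996 and 3019 normalized counts in wild-type against 2285 and 1820 in *Foxq1* cKO samples (log2 fold change -0.56, unadjusted p = 0.0379, adjusted p = 0.857, limma). Its ratio to *Cd81*, another tetraspanin, was 0.273 in each wild-type sample and 0.206 and 0.136 in *Foxq1* cKO samples, a ratio chosen after its values were seen. *Madcam1*, the gene of the mucosal addressin, had 472 and 449 normalized counts against 263 and 78.3 (log2 fold change -1.67, unadjusted p = 0.0577, limma). *Nectin3*, a cell contact receptor, had 48.9 and 142 against 147 and 309 (log2 fold change 1.35, unadjusted p = 0.161, limma).

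Of the 18 counter-receptors on leukocytes and platelets only 8 were listed, and the missing ones included *Itgal* and *Itgb2*, the genes of the chains of LFA-1, and *Selplg*, the gene of a selectin ligand of leukocytes. None of the 8 had an unadjusted p under 0.05 in limma, beside 5.22% of all genes, and their median log2 fold change was -0.13. In 1 of these 8 both *Foxq1* cKO samples were lower and in 0 higher, beside 18% of all genes in each direction. *Itgam*, the α chain of Mac-1 and a macrophage gene, was the only one without overlap, with 153 and 89.7 normalized counts in wild-type against 41.4 and 5.09 in *Foxq1* cKO samples (log2 fold change -2.88, unadjusted p = 0.0528, limma). These values rest on 182, 90, 38 and 5 reads. *Csf1r*, a microglia and macrophage marker, was lower beside it, with 3365 and 2579 against 1732 and 1587 normalized counts (unadjusted p = 0.0109, adjusted p = 0.857, limma). Its log2 fold change of -0.83 was the lowest of the 9 microglia and macrophage markers, the highest being 0.24. Both *Foxq1* cKO samples were lower in 3 of these 9 markers and higher in 0, beside 18% of all genes in each direction. The partner of CD47, *Sirpa*, had a log2 fold change of -0.26 and its genotypes overlapped (adjusted p = 0.882, limma).

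The cytoskeletal linkers of these receptors were represented by 18 genes, with a median log2 fold change of -0.03. In 1 of these 18 both *Foxq1* cKO samples were lower and in 2 higher, beside 18% of all genes in each direction. Only 1 of the 18 had an unadjusted p under 0.05 in limma, beside 5.22% of all genes. *Slc9a3r1*, the gene of the scaffold NHERF1 that joins podocalyxin-type tails to ezrin, had 4900 and 4391 normalized counts in wild-type against 3278 and 2493 in *Foxq1* cKO samples. Both *Foxq1* cKO samples were lower (log2 fold change -0.70, SE 0.206, unadjusted p = 0.0145, adjusted p = 0.857, limma), the only linker with an unadjusted p under 0.05. Its paralog *Slc9a3r2*, the gene of NHERF2, had 8213 and 7821 against 8767 and 9252 (log2 fold change 0.17, unadjusted p = 0.251, limma). The ratio of *Slc9a3r1* to *Slc9a3r2* was 0.597 and 0.561 in wild-type against 0.374 and 0.269 in *Foxq1* cKO samples, a comparison chosen after the values were seen. Among the linkers of the ezrin family, *Ezr* was higher in both *Foxq1* cKO samples (929 and 901 against 1021 and 1368, adjusted p = 0.875, limma). *Msn* and *Rdx*, the genes of moesin and radixin, overlapped between the genotypes, with log2 fold changes of -0.03 and -0.0016.

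The NF-κB route through which *Icam1*, *Vcam1* and *Sele* are known to be induced was represented by 23 of 24 genes, with a median log2 fold change of -0.15. Both *Foxq1* cKO samples were higher in 4 and lower in 5 of these 23, beside 18% of all genes in each direction, and 3 had an unadjusted p under 0.05, beside 5.22% of all genes. *Irf1*, an interferon and NF-κB responsive transcription factor, had 232 and 382 normalized counts in wild-type against 785 and 917 in *Foxq1* cKO samples (log2 fold change 1.51, unadjusted p = 0.0130, limma). *Nfkb2*, a subunit of the noncanonical route, had 342 and 382 against 854 and 639 (log2 fold change 1.03, unadjusted p = 0.0393, limma). *Traf6*, an adaptor of interleukin-1 and Toll-like receptors, had 1037 and 1156 against 393 and 753 (log2 fold change -1.01, unadjusted p = 0.0488, limma). *Tnfaip3*, the gene of the inhibitor A20, had 534 and 490 against 76.2 and 333 (log2 fold change -1.67, unadjusted p = 0.0749, limma). Each of these 4 genes had an adjusted p of 0.857 in limma.

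The last list held genes of mucin-type sugars and of other sialomucins, of which 18 of 24 were listed, with a median log2 fold change of 0.03. In 3 of these 18 both *Foxq1* cKO samples were higher and in 2 lower, beside 18% of all genes in each direction. An unadjusted p under 0.05 in limma was seen in 1 of them, beside 5.22% of all genes. *Chst2*, a sulfotransferase that modifies selectin ligands, had 532 and 760 normalized counts in wild-type against 1220 and 1064 in *Foxq1* cKO samples (log2 fold change 0.84, unadjusted p = 0.0445, adjusted p = 0.857, limma). *St3gal2*, a sialyltransferase, had 625 and 292 against 1015 and 733 (log2 fold change 1.01, unadjusted p = 0.0814, limma). *Cd164*, which encodes endolyn, a sialomucin of many cells, overlapped between the genotypes with a log2 fold change of 0.41. None of the 5 lists held a gene with an adjusted p under 0.05 in limma, DESeq2 or edgeR, and 6 of their 83 genes were under 0.05 unadjusted in limma, beside 5.22% of all genes.

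**Figure D4:**
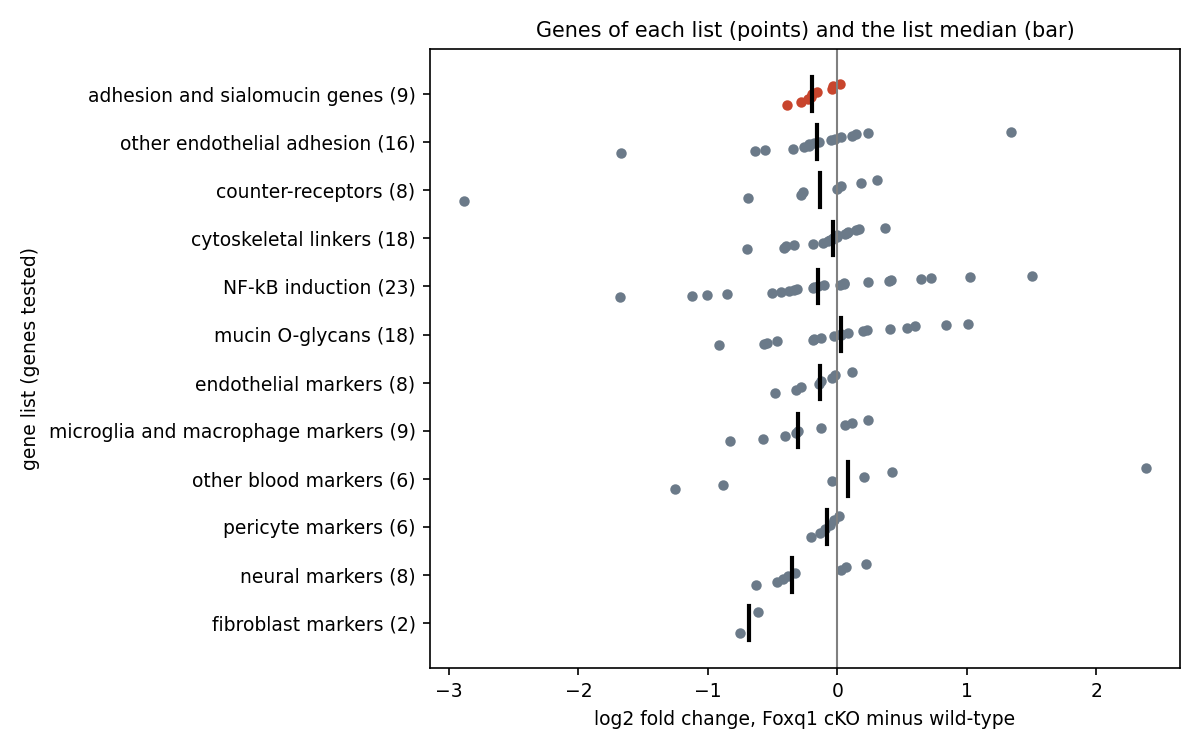
Log2 fold change of each tested gene (points) and the median (bar) for the 9 genes, the 5 lists of related genes and the 6 lists of cell markers. The 9 genes lie between -0.39 and 0.02, while the NF-κB list spreads from -1.67 to 1.51 and the other endothelial adhesion molecules from -1.67 to 1.35.

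Finally, genes with a pattern like that of *Emcn*, the gene of the 9 with the smallest p, were sought by the root mean square distance between log2 values centred on their mean over the 4 samples. The closest were *Itm2c* (0.014), *Cnot7* (0.021) and *Trim12c* (0.023). Of 12471 genes compared, 221 were within 0.1, a wider limit than the distances of the genes named. Likeness over 4 samples is a description and was not tested.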

How the data were processed

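The data were RNA-seq libraries of sorted brain ECs, grouped by genotype label (n = 2 each). The submitters' processing notes name TopHat2 2.0.12, Bowtie2 2.2.3, HTSeq 0.6.0 and the build mm9, without roles. The authors deposited a normalized signal per gene, which proved to be reads over a library-wide factor, since dividing by the step of each library returned whole numbers for all values (tolerance 0.001). The 1207361 lines repeat genes and were reduced to 12693 symbols. Positions and exon lengths came from GENCODE M21 (GRCm38), which held 12678 of the identifiers, and are not mm9 coordinates.

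Values were tested with limma 3.58.1 (lmFit, eBayes with a trend, under R 4.3.3) after a log2 transform with a pseudocount of 1. The 12472 genes averaging 10 or more entered, with Benjamini-Hochberg adjustment over all of them. This scale understates changes of low genes. The alternatives were DESeq2 1.42.0 and edgeR 4.0.16 (quasi-likelihood, TMM) on the recovered reads, pseudocounts of 0.1 and 5, no filter, a minimum mean of 50, quantile and TMM scaling, no trend, no moderation, the replicate block and each sample left out. Scaling to the endothelial markers was added after seeing the data. The main limma fit, DESeq2 and edgeR were first run on simulated data, and the other settings were not. The genes and lists were chosen with earlier results of these data known. Named besides the 9 genes and *Foxq1* were list genes without overlap that had an unadjusted p under 0.05 or were the 2 with the largest change among the non-overlapping genes of their list, markers, and the 3 genes closest to *Emcn*. Genes named outside this rule (*Cd81*, *Slc9a3r2*, *Msn*, *Rdx*, *Sirpa*, *Cd164* and the ratios) were chosen after their values were seen. Tables and plots were made in Python 3.11.15 (pandas 2.3.3, matplotlib 3.10.9).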

Additional observations from a re-analysis of the deposited data

How the results depend on the processing

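No gene of the 9 had an unadjusted p under 0.05 in any of the 16 alternatives. Over all genes, limma gave 651 genes at an unadjusted and 0 at an adjusted p under 0.05. DESeq2 gave 59 adjusted, none of the 9 among them, and edgeR 0. With 1 sample left out, where the lone sample of a genotype is assumed to vary like the other group, the unadjusted count ranged from 276 (without *Foxq1* cKO 1) to 1576 (without wild-type 2). The filter, trend, moderation and replicate block settings leave a gene's log2 fold change unchanged, so its sign was fixed in advance there. With 4 samples kept, and these settings counted, the log2 fold change kept its sign in 102 of 108 results. It turned for *Podxl* (0.075) and *Cd47* (0.027) under quantile normalization, for both when scaled to endothelial markers (0.096 and 0.106), and for *Cd99l2* in DESeq2 (-0.023) and edgeR (-0.022). With a sample left out the sign turned in 8 of 36 results, and the range was -0.49 to 0.096 for *Icam1*, -0.44 to 0.13 for *Icam2*, -0.15 to 0.069 for *Podxl*, -0.35 to 0.38 for *Cd99l2* and -0.22 to 0.15 for *Cd47*. The causes were not tested. *Emcn* stayed between -0.49 and -0.25 throughout. The shared replicate numbers do not pair the samples by any label, and deviations of same-numbered samples correlated at 0.032 over 12472 genes. With the replicate block 693 genes had an unadjusted p under 0.05, and no call on the 9 genes changed. With 2 samples a group, a single-gene permutation test cannot pass 0.05.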
